A study of Bos taurus with 24 samples.

Results

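ADAMTS1, ADAMTS5, ADAMTS9 and ADAMTS14 encode 4 secreted proteases of the ADAMTS family. They were chosen by name because their RNA was much higher or much lower in bovine muscle satellite cells grown with fibroblasts than in satellite cells grown alone. All 4 are in the count table, out of 11937 genes listed and out of 11 ADAMTS genes listed. The values that chose them are given as a description, with no test. Those values are the differences between coculture and monoculture in proliferation, at 24 h and at 72 h. Changes over time within 1 kind of culture were not used for the choice and are tested, although they come from the same libraries.

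ADAMTS proteases (a disintegrin and metalloproteinase with thrombospondin motifs) are secreted as inactive precursors and work in the matrix around cells. ADAMTS1, ADAMTS5 and ADAMTS9 cut the large proteoglycans versican and aggrecan, which hold water and hyaluronan in the matrix, and versican turnover accompanies myoblast fusion and muscle development. ADAMTS14, with ADAMTS2 and ADAMTS3, removes the amino-terminal ends of fibrillar procollagens so that collagen fibres can form.

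Satellite cells are the stem cells of skeletal muscle. Here a pool of 3 satellite cell lines from the longissimus dorsi muscle of cattle labelled WT was used at passage 3, and the fibroblasts were at passage 10. Cells were seeded at 8000 per cm2, with pores of 0.4 µm in the plates used for coculture, and grew for 5 days with 20% fetal bovine serum. Horse serum at 10% then started differentiation, and RNA was taken in proliferation, 24 h later and 72 h later. This gave 6 groups of 4 libraries: monoculture and coculture at each of the 3 stages. Neither an empty insert in the monoculture wells nor a separate culture behind each of the 4 replicates is stated in the labels. The p-values therefore measure the spread between these libraries, which may be technical. Since each library is bulk RNA, fewer cells of a type and less RNA per cell cannot be told apart.

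The 24 libraries held 11541988 to 34957625 counts each. The library names end in a lane code. All libraries in proliferation, all monoculture libraries and coculture replicates 1 and 2 at 24 h carry lane 6, and coculture replicates 3 and 4 at 24 h and all coculture libraries at 72 h carry lane 7. Lane and culture therefore cannot be told apart at 72 h within that stage. A further code in the labels, of unstated meaning, is 1 for monoculture at 24 and 72 h and 2 for all other groups. It cannot be told apart from culture at 24 and 72 h, nor from the first step over time in monoculture. Counts of nuclear ribosomal RNA took 0.281% to 4.07% of a library. The highest shares were in coculture replicate 2 at 24 h, at 4.07%, in coculture replicate 1 at 72 h, at 2.24%, and in monoculture replicates 3 and 4 at 72 h, at 2.14% and 1.76%.

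Of 12 markers of satellite cells and myoblasts, ITGA7, DES, NCAM1 and PAX3 are among the genes listed. PAX7, MYF5, MYOD1 and MYOG are not among them. No listed gene has fewer than 6 counts in any of the 24 libraries, so nothing is known here of the level of unlisted genes. In proliferation the 4 listed markers summed to 148 to 150 CPM (the share of a library's counts, scaled to a fixed total) in monoculture and to 190 to 209 CPM in coculture. The 24 h sums were 269 to 295 and 195 to 222 CPM, and at 72 h 349 to 383 and 178 to 200 CPM. In coculture 2 of the 4 rose in proliferation (59% of all genes were called), and 2 fell at 24 h (23.8%). At 72 h 3 fell and 1 rose (50.5%). ITGA7 fell by 2.01, DES by 0.78 and NCAM1 by 0.16 (edgeR adjusted p = 5.17e-18, 7.53e-12 and 0.0195). PAX3 rose by 0.20 (edgeR adjusted p = 0.0234). Of 15 fibroblast markers, 11 are listed, at sums in proliferation of 34931 to 37500 CPM in monoculture and 41690 to 42833 CPM in coculture. Their sums were 62235 to 69202 and 60043 to 67831 CPM at 24 h, and 88240 to 99686 and 83480 to 85539 CPM at 72 h. By edgeR's quasi-likelihood test 3 rose and 4 fell in coculture in proliferation (59% of all genes were called). At 24 h 3 rose and 2 fell (23.8%), and at 72 h 2 rose and 3 fell (50.5%). Of 9 smooth muscle and pericyte markers, 7 are listed. The sum of those 7 in proliferation was 15280 to 15414 CPM in monoculture and 18447 to 20198 CPM in coculture, where 5 rose and 2 fell by edgeR's quasi-likelihood test (59% of all genes were called). The sums at 24 h were 17422 to 19791 and 16483 to 17557 CPM, and 2 fell (23.8%). At 72 h they were 14003 to 16357 and 9228 to 10299 CPM, and all 7 fell (50.5%). For endothelium, leukocytes and adipocytes, 1 of 6, 1 of 6 and 2 of 5 markers are listed, at 4.35 CPM or less for VWF, 2.17 CPM or less for CD68 and 7.11 to 28.0 CPM for FABP4 and PLIN1 together. The part of these shifts in the results for the proteases was not tested.

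All levels are CPM, scaled by the trimmed mean of M-values (TMM), which sets the median gene near no change. CPM does not correct for gene length, so levels are compared between groups and not between genes. Differences are log2 fold changes with their standard error (SE) from edgeR, and adjusted p-values are from edgeR's quasi-likelihood test with Benjamini-Hochberg adjustment over all 11937 genes. A gene rose or fell where the adjusted p was under 0.05. In the authors' deposited table of comparisons, the 12 log2 fold changes of the 4 genes between coculture and monoculture were within 0.015 of those given here.

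In proliferation, all 4 genes had coculture libraries wholly above or wholly below the monoculture libraries, where 53% of all genes did. At 24 h this held for ADAMTS5 and ADAMTS9, where 24.4% of all genes did, and at 72 h for all 4, where 42% did. Nothing is read from these counts, since the same contrasts chose the genes. At 72 h ADAMTS9 and ADAMTS5 were higher in coculture, and ADAMTS1 and ADAMTS14 were lower.

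**Figure D1:**
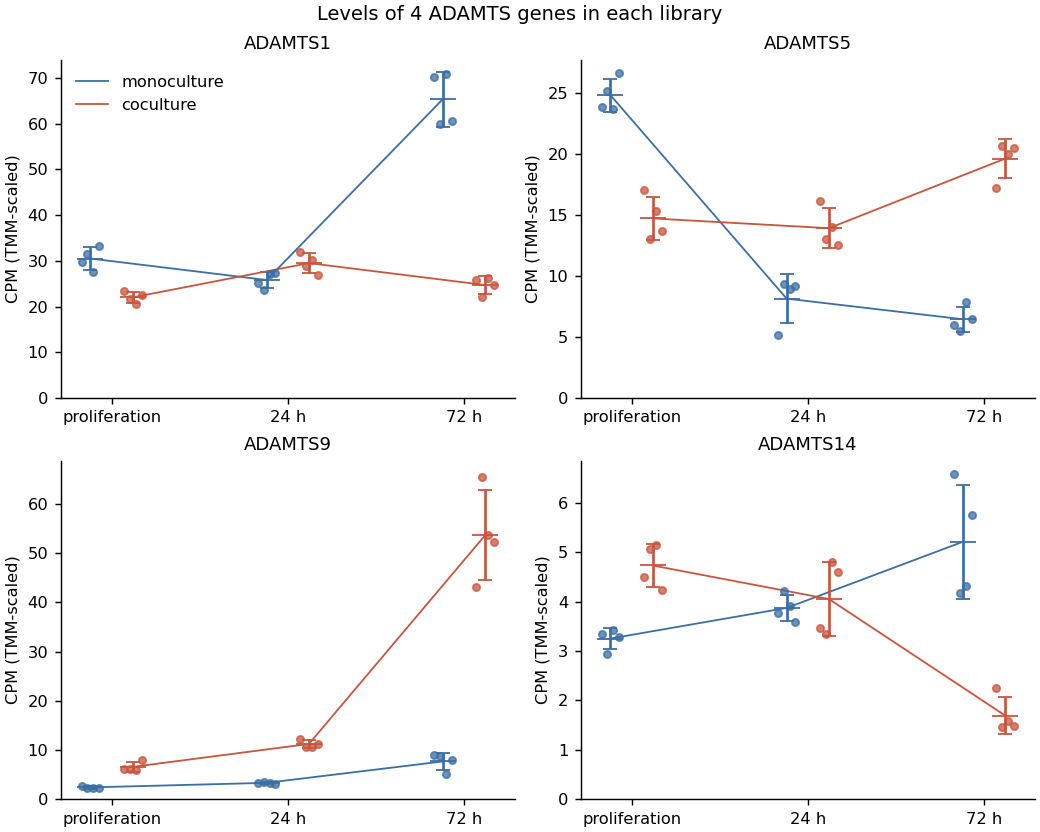
TMM-scaled CPM (vertical axes, linear, from 0) of the 4 genes in each of the 24 libraries by stage (horizontal axis), monoculture in blue and coculture in red. Points are libraries, horizontal bars are means, error bars are SD (n = 4), and lines join the means. At 72 h ADAMTS9 and ADAMTS5 sit higher in coculture and ADAMTS1 and ADAMTS14 sit lower.

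ADAMTS9, a versican-cleaving protease that is also needed for the formation of cilia, was higher in coculture at every stage. In proliferation it stood at 2.73, 2.14, 2.27 and 2.25 CPM in monoculture and at 6.18, 6.00, 5.96 and 7.99 CPM in coculture. Every coculture library lay above every monoculture library, with coculture replicate 4 the highest. The log2 fold change was 1.47 ± 0.179 (SE), a 2.77-fold difference. At 24 h the values were 3.20, 3.47, 3.32 and 3.14 CPM in monoculture and 12.3, 10.6, 10.6 and 11.2 CPM in coculture. The groups were again separate, with little spread in either, and the difference was 3.37-fold (log2 fold change 1.75 ± 0.154). At 72 h the monoculture libraries held 8.90, 8.74, 5.02 and 7.91 CPM and the coculture libraries 43.1, 65.6, 53.8 and 52.4 CPM. The lowest coculture library was far above the highest monoculture library, and the difference was 6.95-fold (log2 fold change 2.80 ± 0.117). The low monoculture value at 72 h is replicate 3 and the low coculture value is replicate 1, both among the libraries with more ribosomal RNA. Without the 4 libraries of that kind the log2 fold change at 72 h was 2.70 ± 0.108.

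ADAMTS9 also rose over time in both kinds of culture. From proliferation to 24 h in monoculture the mean went from 2.35 ± 0.261 to 3.28 ± 0.145 CPM (SD, n = 4). The log2 fold change was 0.50 ± 0.205 (SE; edgeR adjusted p = 0.032). That small rise lost its call when libraries were scaled by their totals alone (0.31, edgeR adjusted p = 0.205), and when any one of monoculture replicates 2, 3 and 4 in proliferation or 2 and 3 at 24 h was left out (adjusted p between 0.0547 and 0.076). From 24 to 72 h in monoculture it rose by 1.23 ± 0.166 on the log2 scale (edgeR adjusted p = 2.36e-07). In coculture it rose by 0.78 ± 0.135 to 24 h (edgeR adjusted p = 2.57e-05) and by a further 2.27 ± 0.109 to 72 h (edgeR adjusted p = 3.12e-17). The 4 libraries of the later stage were above the 4 of the earlier stage in each of these steps. Whether the rise differed between the cultures was not tested, because that difference follows from the contrasts that chose the gene.

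ADAMTS5, the main aggrecan-cleaving protease of cartilage, was lower in coculture in proliferation and higher in coculture after the medium change. In proliferation it stood at 23.8, 25.1, 23.7 and 26.6 CPM in monoculture and at 17, 13, 15.3 and 13.7 CPM in coculture. All monoculture libraries were the higher ones, and the log2 fold change was -0.77 ± 0.108 (SE). At 24 h the monoculture libraries held 5.15, 9.32, 8.90 and 9.16 CPM and the coculture libraries 16.1, 13, 14 and 12.5 CPM. Here all coculture libraries were the higher ones, monoculture replicate 1 lay below the other monoculture libraries, and the log2 fold change was 0.75 ± 0.124. Without that library it was 0.60. At 72 h the values were 5.95, 5.47, 7.85 and 6.50 CPM in monoculture and 17.2, 20.6, 20.0 and 20.5 CPM in coculture. The groups were separate by a wide margin, at 3.06-fold (log2 fold change 1.61 ± 0.127). Without the 4 libraries with more ribosomal RNA the log2 fold change was 1.83 ± 0.154.

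In monoculture ADAMTS5 was much lower a day after the medium change. The mean went from 24.8 ± 1.34 CPM in proliferation to 8.13 ± 2.00 CPM at 24 h (SD, n = 4). All libraries at 24 h were below all in proliferation, and ADAMTS5 fell by 1.59 ± 0.117 on the log2 scale (edgeR adjusted p = 4.92e-13). From 24 to 72 h it fell by a further 0.36 ± 0.143 (edgeR adjusted p = 0.0317) with overlapping libraries. This call was lost in a fit of the 2 groups alone (adjusted p = 0.085) and without any one of monoculture replicates 2, 3 and 4 at 24 h or 1 and 2 at 72 h (adjusted p between 0.0821 and 0.132). In coculture the change from proliferation to 24 h was -0.07 ± 0.115 with overlapping libraries, and it did not pass the test (edgeR adjusted p = 0.636). From 24 to 72 h in coculture ADAMTS5 rose by 0.50 ± 0.111 (edgeR adjusted p = 3.88e-04), with all libraries at 72 h above all at 24 h.

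ADAMTS1, which cuts versican and aggrecan and is induced in many tissues by hormones and by inflammation, differed most at 72 h. In proliferation it stood at 29.7, 31.6, 27.5 and 33.3 CPM in monoculture and at 23.4, 21.6, 20.5 and 22.5 CPM in coculture. The coculture libraries were all the lower ones, with a log2 fold change of -0.47 ± 0.0732 (SE). At 24 h the monoculture libraries held 25.2, 23.7, 27.2 and 27.3 CPM and the coculture libraries 32.0, 28.9, 30.2 and 26.9 CPM. The groups overlapped, through coculture replicate 4, and the log2 fold change was 0.19 ± 0.0724. At 72 h the values were 70.3, 59.9, 70.9 and 60.6 CPM in monoculture and 25.9, 22.1, 26.3 and 24.6 CPM in coculture. Every monoculture library was far above every coculture library, and the log2 fold change was -1.41 ± 0.0692.

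The difference at 72 h came with a change over time in monoculture. There ADAMTS1 went from 25.8 ± 1.74 CPM at 24 h to 65.4 ± 6.00 CPM at 72 h (SD, n = 4). It rose by 1.35 ± 0.0688 on the log2 scale (edgeR adjusted p = 7.31e-17). Over the same interval in coculture it fell by 0.25 ± 0.0728 (edgeR adjusted p = 0.00482), with separate libraries. With lane as a term of the fit the change in coculture was -0.21 (edgeR adjusted p = 0.0652). In the first step, from proliferation to 24 h, the directions were the other way round. ADAMTS1 fell by 0.25 ± 0.072 in monoculture (edgeR adjusted p = 0.00334) and rose by 0.42 ± 0.0735 in coculture (edgeR adjusted p = 3.00e-05).

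ADAMTS14, the procollagen-processing member of the 4, had the fewest counts, with 25 to 38 counts per library in coculture at 72 h. In proliferation it stood at 3.35, 2.94, 3.43 and 3.28 CPM in monoculture and at 4.50, 5.06, 5.14 and 4.23 CPM in coculture. The coculture libraries were the higher ones, with a log2 fold change of 0.55 ± 0.153 (SE). At 24 h the monoculture libraries held 3.77, 4.22, 3.90 and 3.58 CPM and the coculture libraries 3.47, 3.34, 4.81 and 4.59 CPM. The groups overlapped, and the log2 fold change was 0.06 ± 0.153. The coculture libraries split by lane, with both lane 6 libraries below and both lane 7 libraries above the monoculture libraries, and with lane 6 libraries alone the log2 fold change was -0.20. At 72 h the values were 6.58, 4.17, 4.31 and 5.76 CPM in monoculture and 2.25, 1.45, 1.57 and 1.47 CPM in coculture. Every coculture library was below every monoculture library, and the log2 fold change was -1.64 ± 0.173. Coculture replicate 1 was the highest of its group, and without it the log2 fold change was -1.80. With lane as a term of the fit it was -2.10 ± 0.26.

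Over time the largest step of ADAMTS14 was in coculture. From 24 to 72 h the coculture mean went from 4.05 ± 0.757 to 1.69 ± 0.381 CPM (SD, n = 4), with separate libraries. It fell by 1.28 ± 0.177 on the log2 scale (edgeR adjusted p = 4.58e-07). In monoculture the step from 24 to 72 h was a rise of 0.43 ± 0.15 with overlapping libraries (edgeR adjusted p = 0.0168). That call was lost without monoculture replicate 1 at 72 h (0.27, edgeR adjusted p = 0.141) and when libraries were scaled by their totals alone (0.30, edgeR adjusted p = 0.103). The first step did not pass the test in monoculture (0.26 ± 0.158, edgeR adjusted p = 0.145), although all libraries at 24 h were above all in proliferation. It did not pass in coculture either (-0.22 ± 0.148, edgeR adjusted p = 0.226). With lane as a term that change was -0.48 and passed (edgeR adjusted p = 0.0376). With lane 6 libraries alone it was -0.47 and did not (edgeR adjusted p = 0.0505).

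In counts of calls over time, 3 of the 4 genes changed from proliferation to 24 h in monoculture, where 68.5% of all genes were called. From 24 to 72 h in monoculture 4 of 4 changed, where 53.9% of all genes were called. In coculture 2 of 4 changed in the first step, where 43.2% were called, and 4 of 4 in the second, where 48.2% were called. Changes of at least 2-fold were rarer over all genes. Among the 4 genes they were the fall of ADAMTS5 in the first step in monoculture (4.47% of all genes), the rises of ADAMTS1 and ADAMTS9 in the second step in monoculture (6%), and the rise of ADAMTS9 and the fall of ADAMTS14 in the second step in coculture (4.62%). None of the 4 changed by that much in the first step in coculture (1.51%). Nothing is read from these counts and shares. Each step over time uses libraries of the contrasts that chose the genes, so large steps are more likely among them.

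**Figure D2:**
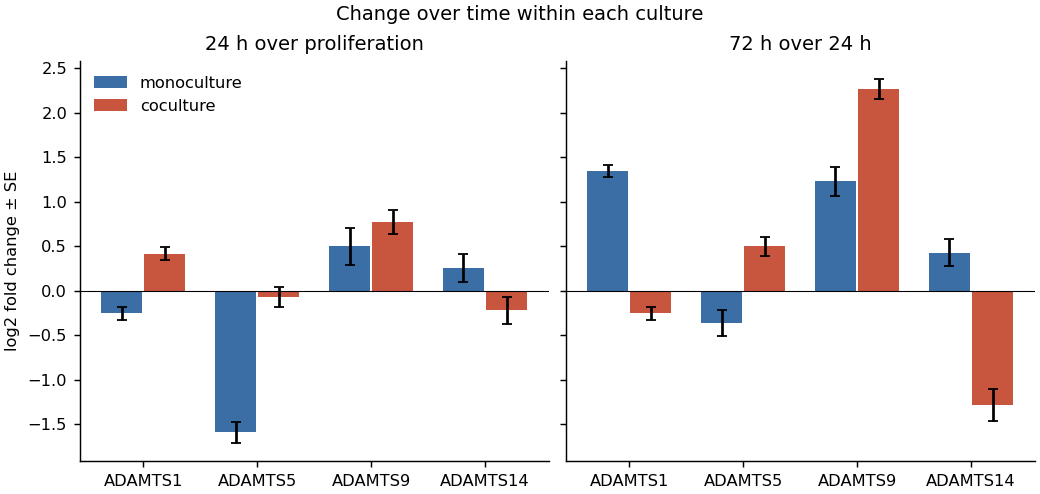
log2 fold change over time within each culture (vertical axis) for the 4 genes, from proliferation to 24 h (left) and from 24 to 72 h (right), monoculture in blue and coculture in red, with SE as error bars. ADAMTS9 is above 0 in all 4 steps, and ADAMTS1 lies on opposite sides of 0 in the cultures in both steps.

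Ordered by group means, the 4 genes followed different sequences. ADAMTS9 spanned the widest range, with a ratio of 22.9 between the highest and lowest group mean. Its order from low to high was monoculture in proliferation, monoculture at 24 h, coculture in proliferation, monoculture at 72 h, coculture at 24 h and coculture at 72 h, and of these neighbours only coculture in proliferation and monoculture at 72 h overlapped. ADAMTS5 spanned a ratio of 3.85, from monoculture at 72 h and 24 h, which overlapped, through coculture at 24 h and in proliferation, which overlapped, to coculture at 72 h and then monoculture in proliferation, each separate from its neighbour. ADAMTS1 spanned a ratio of 2.97, and its 5 lower groups each overlapped the next, leaving monoculture at 72 h separate above them. ADAMTS14 spanned a ratio of 3.08. Coculture at 72 h was separate at the bottom, monoculture in proliferation was separate above it, and the other 4 groups each overlapped the next.

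The ratio of ADAMTS1 to ADAMTS5 within a library depends on gene length, so its values are compared between groups and not read within a group. As log2, it was 0.30 ± 0.06 in monoculture in proliferation, 1.70 ± 0.41 at 24 h and 3.35 ± 0.19 at 72 h (SD, n = 4). In coculture it was 0.58 ± 0.17, 1.09 ± 0.07 and 0.34 ± 0.21 at the same stages. In monoculture the ratio was higher at each later stage, and in coculture at 72 h it overlapped the values of proliferation. The ratio of ADAMTS9 to ADAMTS14 went up with time in both cultures, from -0.47 ± 0.13 in monoculture in proliferation to 0.54 ± 0.36 at 72 h, and from 0.46 ± 0.32 to 5.00 ± 0.53 in coculture. The differences between the cultures in both ratios follow from the contrasts that chose the genes, so nothing is read from them.

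Across the 24 libraries, log2 CPM of the 4 genes gave Pearson correlations from -0.61, between ADAMTS9 and ADAMTS14, to 0.38, between ADAMTS1 and ADAMTS14. ADAMTS1 and ADAMTS5 gave -0.53, ADAMTS5 and ADAMTS14 gave -0.56, ADAMTS5 and ADAMTS9 gave 0.15, and ADAMTS1 and ADAMTS9 gave -0.12. These are descriptions without a p, since the points share groups, libraries and scaling. The genes most like each of the 4 over the 24 libraries, among genes with a symbol and a mean of at least 5 CPM, were different ones. Since they were picked by this correlation, a shared pattern over the groups follows from the choice. For ADAMTS1 they were LAMC3 (r = 0.936), MRGPRF (0.919) and CITED2 (0.916). LAMC3, a laminin chain of basement membranes, had its highest mean in monoculture at 72 h, at 205 ± 9.67 CPM against 92.7 ± 8.77 CPM in coculture (SD, n = 4).

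For ADAMTS5 the genes most alike were EPS15 (r = 0.95), NUP58 (0.946) and CSNK1A1 (0.941). EPS15, an adaptor of endocytosis, went from 77.3 ± 1.56 CPM in monoculture in proliferation to 55.8 ± 2.07 CPM at 72 h (SD, n = 4), with 71.8 ± 1.22 CPM in coculture at 72 h. For ADAMTS9 they were MVP (r = 0.968), XYLT1 (0.965) and KCTD12 (0.963). XYLT1, the enzyme that starts glycosaminoglycan chains on proteoglycans, stood at 95.3 ± 5.78 CPM in coculture at 72 h against 58.2 ± 4.23 CPM in monoculture. For ADAMTS14 they were PDLIM2 (r = 0.942), ARSI (0.911) and ENC1 (0.908). PDLIM2, a PDZ and LIM domain protein bound to the actin cytoskeleton, stood at 63.0 ± 6.76 CPM in coculture at 72 h, below its mean in the other groups.

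ADAMTS1 and ADAMTS5 are neighbours in the genome. The coordinates are those of the deposited tables, which name no build. ADAMTS5 (ENSBTAG00000000648) spans 9441509 to 9492325 on chromosome 1 and ADAMTS1 (ENSBTAG00000000706) spans 9583735 to 9592416, 91.4 kb away. ADAMTS9 (ENSBTAG00000003165) spans 36663691 to 36922968 on chromosome 22, and ADAMTS14 (ENSBTAG00000021177) spans 26827443 to 26922027 on chromosome 28. All 4 are annotated as protein coding, and no other listed gene overlaps them. The nearest listed genes are APP on the far side of ADAMTS1, N6AMT1 on the far side of ADAMTS5, MAGI1 and PSMD6 beside ADAMTS9, and PALD1 and SGPL1 beside ADAMTS14.

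Between ADAMTS5 and ADAMTS1 lie 2 listed long noncoding RNA genes without a symbol, and both followed ADAMTS5 more than ADAMTS1. ENSBTAG00000069841 (9492593 to 9494325) starts 0.3 kb from ADAMTS5, and ENSBTAG00000056698 (9494887 to 9498281) starts 2.6 kb from it. Over the 24 libraries ENSBTAG00000069841 gave r = 0.86 with ADAMTS5 and -0.22 with ADAMTS1, and ENSBTAG00000056698 gave 0.92 and -0.46. Whether the counting used strand is not stated, and the strand of these genes is not given here. Reads that run past the listed span of ADAMTS5 and reads of these genes cannot be told apart from these counts. The tests of both genes between the cultures may therefore not be independent of the contrasts that chose ADAMTS5.

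ENSBTAG00000056698 stood at 11.6, 14.7, 13.3 and 13.4 CPM in monoculture in proliferation and at 3.71, 4.39, 4.32 and 4.52 CPM at 24 h. It thus fell by 1.64 on the log2 scale (edgeR adjusted p = 1.80e-11), next to the fall of 1.59 in ADAMTS5. At 72 h it stood at 3.24, 2.48, 3.28 and 3.03 CPM in monoculture and at 5.10, 7.94, 7.75 and 7.68 CPM in coculture, with coculture replicate 1 apart from the rest. Between the cultures it fell by 1.13 ± 0.134 in proliferation (edgeR adjusted p = 3.10e-08) and rose by 1.24 ± 0.167 at 72 h (edgeR adjusted p = 2.68e-07). At 24 h the difference of 0.36 ± 0.159 did not pass (edgeR adjusted p = 0.0973), although with lane 6 libraries alone it was 0.58 and did (adjusted p = 0.0194).

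ENSBTAG00000069841 had the same signs. Between the cultures it fell by 1.59 ± 0.154 in proliferation (edgeR adjusted p = 8.26e-10), and it rose by 0.93 ± 0.182 at 72 h with overlapping libraries (edgeR adjusted p = 8.90e-05). At 24 h the difference of 0.48 ± 0.188 did not pass the test (edgeR adjusted p = 0.0643). It passed with DESeq2 (adjusted p = 0.0427), with lane as a term (adjusted p = 0.0446) and with lane 6 libraries alone (adjusted p = 0.0285). In monoculture from proliferation to 24 h it fell by 2.08 (edgeR adjusted p = 2.09e-12).

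**Figure D3:**
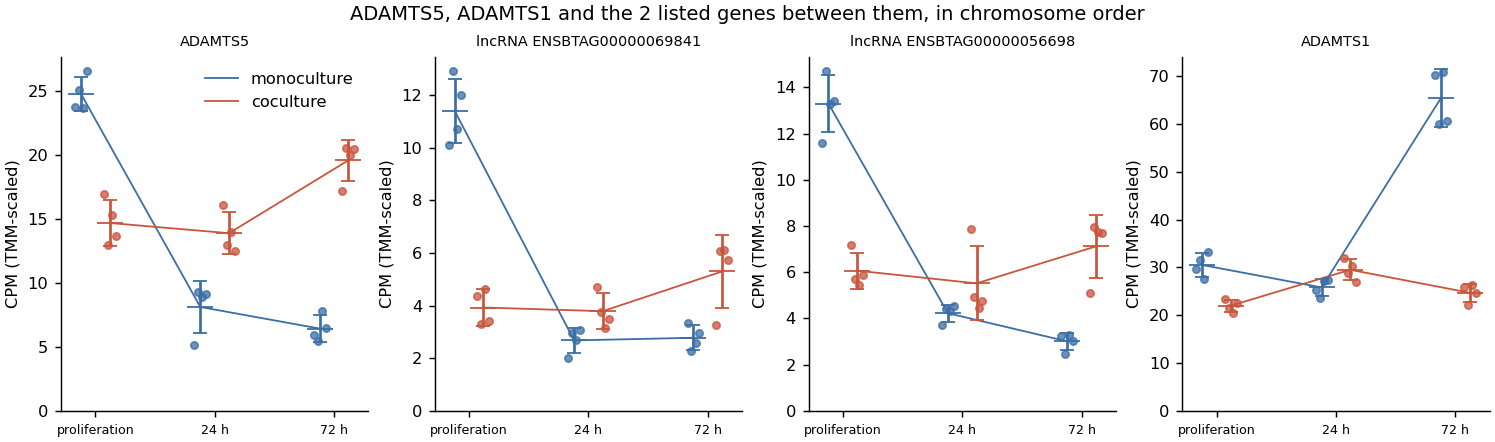
TMM-scaled CPM (vertical axes, linear, from 0) by stage for ADAMTS5, the 2 long noncoding RNA genes and ADAMTS1, in chromosome order, monoculture in blue and coculture in red. Points are libraries, bars are means with SD (n = 4). The first 3 panels show the highest values in monoculture in proliferation, and the ADAMTS1 panel shows them in monoculture at 72 h.

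The list holds 7 other ADAMTS genes that are in the table. In proliferation 4 of them rose in coculture and 1 fell, with a median log2 fold change of 0.30 beside 0.004 over all genes, of which 59% were called. ADAMTS4, another aggrecan-cleaving protease, rose by 0.60 ± 0.108 (edgeR adjusted p = 2.05e-05), and ADAMTS2, the best known procollagen amino-proteinase, rose by 0.53 ± 0.0426 (edgeR adjusted p = 2.46e-11). ADAMTS10, which binds fibrillin microfibrils, rose by 0.30 (edgeR adjusted p = 2.88e-04) and ADAMTS7 by 0.18 (edgeR adjusted p = 0.0141), the latter not called when libraries were scaled by their totals alone (0.12, adjusted p = 0.163). ADAMTS20, which shares its domain layout with ADAMTS9 and also cuts versican, fell by 0.66 ± 0.0633 (edgeR adjusted p = 7.62e-10). The values of ADAMTS6 (0.30, adjusted p = 0.0808) and ADAMTS3 (-0.04, adjusted p = 0.681) did not pass. In a fit of the 2 groups alone ADAMTS6 did pass (0.29, edgeR adjusted p = 0.0296).

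At 24 h, where 23.8% of all genes were called, 1 of the 7 rose and 1 fell, with a median of -0.07 beside -0.003 over all genes. ADAMTS2 rose by 0.33 ± 0.0422 (edgeR adjusted p = 5.13e-07). ADAMTS3 fell by 0.31 ± 0.086 (edgeR adjusted p = 0.00879), a call lost with lane as a term (-0.23, adjusted p = 0.141). ADAMTS7 (-0.07) was not called, but it was without monoculture replicate 1 (-0.15, edgeR adjusted p = 0.043). At 72 h, where 50.5% of all genes were called, 3 rose and 2 fell, with a median of 0.23 beside -0.001. When libraries were scaled by their totals alone, which moved the median of all genes to 0.13, 4 rose and 1 fell.

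The largest of these differences at 72 h was that of ADAMTS6, a close relative of ADAMTS10. It stood at 9.33, 12.4, 8.43 and 9.38 CPM in monoculture and at 16.6, 24.8, 17.1 and 18.6 CPM in coculture. The groups were separate, and ADAMTS6 rose by 0.96 ± 0.115 on the log2 scale (edgeR adjusted p = 4.22e-08). ADAMTS7, a protease of cartilage oligomeric matrix protein, fell by 0.62 ± 0.064 (edgeR adjusted p = 2.00e-09). It stood at 74.7 ± 4.10 CPM in monoculture and 48.6 ± 1.56 CPM in coculture (SD, n = 4). ADAMTS20 fell by 0.19 (edgeR adjusted p = 0.0113), a call lost when libraries were scaled by their totals alone (-0.06, adjusted p = 0.421), with lane as a term (-0.10, adjusted p = 0.549) and without monoculture replicate 3 (-0.15, adjusted p = 0.0513).

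ADAMTS2 and ADAMTS3 share the procollagen role of ADAMTS14. At 72 h ADAMTS2 rose by 0.23 ± 0.0419 (edgeR adjusted p = 3.42e-05) and ADAMTS3 by 0.39 ± 0.0861 (edgeR adjusted p = 3.49e-04), beside the log2 fold change of -1.64 for ADAMTS14. The difference between these genes was not tested. ADAMTS4 (0.24, edgeR adjusted p = 0.0598) and ADAMTS10 (-0.10, edgeR adjusted p = 0.185) did not pass at 72 h, and ADAMTS10 was at 0.03 when libraries were scaled by their totals alone. ADAMTS4 did pass with library totals alone (0.37, adjusted p = 0.00838), with DESeq2 (0.25, adjusted p = 0.0467), without coculture replicate 1 (0.33, adjusted p = 0.00826) and without monoculture replicate 1 or 2 (adjusted p = 0.019 and 0.037).

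The ADAMTS-like genes encode relatives without the protease domain that bind the matrix. At 72 h 4 of the 4 listed fell in coculture, where 50.5% of all genes were called, with a median of -0.56 beside -0.001 over all genes. When libraries were scaled by their totals alone, or without the 4 libraries with more ribosomal RNA, 3 fell. ADAMTSL3 fell by 0.65 ± 0.128 (edgeR adjusted p = 8.47e-05), ADAMTSL5 by 0.61 ± 0.0662 (edgeR adjusted p = 4.71e-09), ADAMTSL1 by 0.50 ± 0.137 (edgeR adjusted p = 0.00322) and ADAMTSL4 by 0.20 ± 0.0494 (edgeR adjusted p = 0.00144). With lane as a term 2 of the 4 fell. ADAMTSL1 was at -0.27 without monoculture replicate 3 and lost its call without the 4 libraries with more ribosomal RNA (-0.30, adjusted p = 0.0612). In proliferation, where 59% of all genes were called, 3 fell and ADAMTSL4 rose by 0.33 (edgeR adjusted p = 2.94e-06), and at 24 h, where 23.8% were called, 3 fell. The fall of ADAMTSL1 at 24 h (-0.42, edgeR adjusted p = 0.0332) was lost without monoculture replicate 2, 3 or 4 or coculture replicate 1, 2 or 4 (adjusted p between 0.0505 and 0.117). It was also lost with lane as a term (adjusted p = 0.169), with lane 6 libraries alone (0.184) and with DESeq2 (0.0547). The fall of ADAMTSL5 at 24 h (-0.23, edgeR adjusted p = 0.00794) was lost without monoculture replicate 3 (-0.17, adjusted p = 0.0578).

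**Figure D4:**
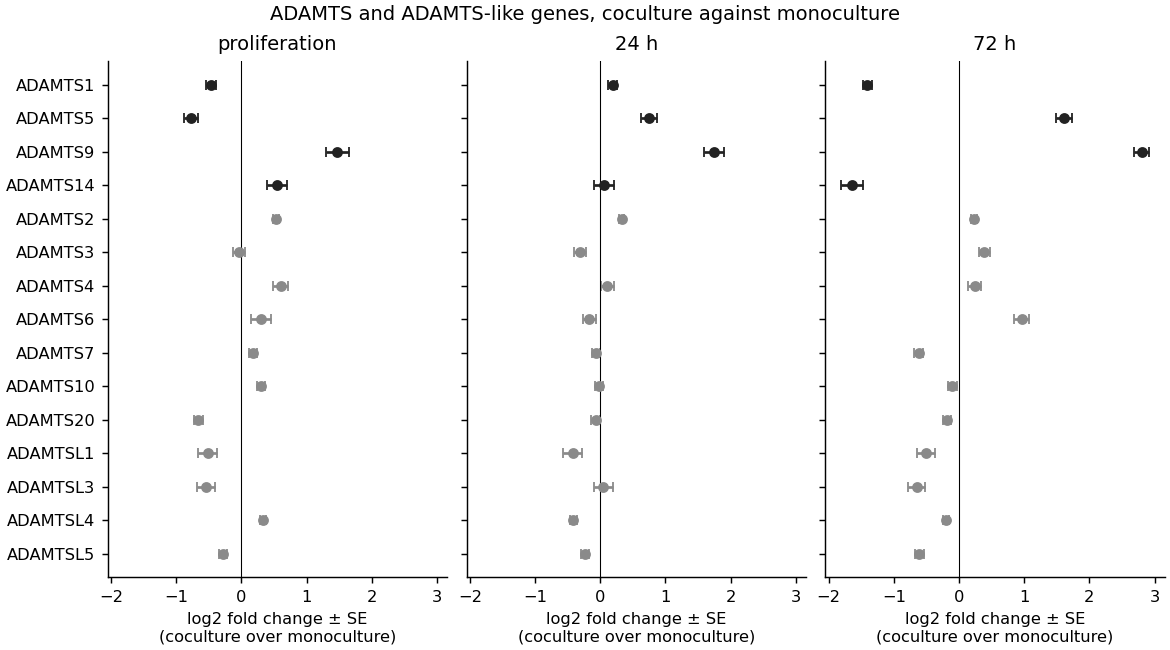
log2 fold change of coculture over monoculture (horizontal axes) with SE for the 11 ADAMTS and 4 ADAMTS-like genes listed, in proliferation, at 24 h and at 72 h. The 4 genes chosen on these contrasts are in black and the others in grey. At 72 h ADAMTS6 lies farthest above 0 among the grey points.

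Genes that inhibit, activate, secrete or clear ADAMTS proteases were listed for 13 of 15 symbols. In proliferation 6 rose and 1 fell (59% of all genes were called), at 24 h 3 rose and 3 fell (23.8%), and at 72 h 4 rose and 7 fell (50.5%). The medians were 0.12, -0.05 and -0.13, beside 0.004, -0.003 and -0.001 over all genes. When libraries were scaled by their totals alone, 5 rose and 4 fell at 72 h, with a median of 0.01. TIMP3, the tissue inhibitor with the strongest action on ADAMTS4 and ADAMTS5, was lower in coculture at every stage. At 72 h it stood at 1768, 1763, 2188 and 1796 CPM in monoculture and at 1280, 1047, 1215 and 1167 CPM in coculture. The groups were separate, and TIMP3 fell by 0.67 ± 0.0568 (edgeR adjusted p = 3.15e-11), after falls of 0.58 in proliferation (edgeR adjusted p = 1.06e-09) and 0.39 at 24 h (edgeR adjusted p = 4.65e-06).

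TIMP1, an inhibitor mainly of other metalloproteinases, went the other way and rose by 0.55, 0.37 and 0.47 at the 3 stages (edgeR adjusted p = 3.32e-09, 1.31e-05 and 4.61e-08). RECK, a membrane-bound inhibitor of metalloproteinases, rose by 0.62 ± 0.0752 at 72 h (edgeR adjusted p = 4.18e-08). PCSK7, a proprotein convertase, fell by 0.53 ± 0.0452 at 72 h (edgeR adjusted p = 3.34e-11). POFUT2, which adds fucose to thrombospondin repeats and so lets ADAMTS proteins leave the cell, rose by 0.47 in proliferation (edgeR adjusted p = 2.20e-10) and fell by 0.38 at 72 h (edgeR adjusted p = 5.80e-09). LRP1, the endocytic receptor that clears ADAMTS5, rose by 0.46 ± 0.0882 in proliferation (edgeR adjusted p = 5.41e-05).

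Substrates and hyaluronan partners of these proteases were listed for 10 of 18 symbols. In proliferation 5 rose and 0 fell (59% of all genes were called), at 24 h 1 rose and 1 fell (23.8%), and at 72 h 3 rose and 3 fell (50.5%). The medians were 0.23, -0.02 and -0.03, beside 0.004, -0.003 and -0.001 over all genes. Without the 4 libraries with more ribosomal RNA, 5 rose and 2 fell at 72 h, with a median of 0.14, and with library totals alone 4 rose and 1 fell, with a median of 0.11. VCAN, which encodes versican, did not pass the test at any stage (log2 fold changes of -0.12, 0.11 and 0.11; edgeR adjusted p = 0.121, 0.263 and 0.175). It stood at 632 ± 45 CPM in monoculture and 683 ± 32.4 CPM in coculture at 72 h (SD, n = 4), with overlapping libraries. ACAN, which encodes aggrecan, fell by 0.55 ± 0.158 at 72 h with overlapping libraries (edgeR adjusted p = 0.00465). THBS2, a matricellular thrombospondin, rose by 1.05 ± 0.0628 at 72 h (edgeR adjusted p = 2.00e-14), and CD44, the hyaluronan receptor, fell by 0.61 ± 0.0661 at 24 h (edgeR adjusted p = 3.92e-08).

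Fibrillar procollagens and their end-processing genes other than ADAMTS14 were listed for 11 genes. Of these 7 rose and 2 fell in proliferation (59% of all genes were called), 1 rose and 2 fell at 24 h (23.8%), and 2 rose and 6 fell at 72 h (50.5%). The medians were 0.14, -0.04 and -0.12, beside 0.004, -0.003 and -0.001 over all genes. At 72 h, 4 rose and 2 fell when libraries were scaled by their totals alone, and 3 rose and 4 fell without the 4 libraries with more ribosomal RNA. COL1A1, the main chain of type I collagen, rose by 0.50 ± 0.0389 in proliferation (edgeR adjusted p = 1.40e-11) and fell by 0.21 ± 0.0388 at 72 h (edgeR adjusted p = 3.63e-05). COL11A1, a minor fibrillar chain, fell by 0.47 ± 0.0577 at 72 h (edgeR adjusted p = 5.14e-08). BMP1, which cuts the carboxy-terminal ends of procollagens, rose by 0.39 ± 0.0536 in proliferation (edgeR adjusted p = 3.49e-07) and fell by 0.30 ± 0.0533 at 72 h (edgeR adjusted p = 1.96e-05).

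Signals and transcription factors known to act on ADAMTS genes in other cells were listed for 20 of 26 symbols. In proliferation 9 rose and 3 fell (59% of all genes were called), at 24 h 9 rose and 2 fell (23.8%), and at 72 h 12 rose and 6 fell (50.5%). The medians were 0.10, 0.13 and 0.43, beside 0.004, -0.003 and -0.001 over all genes. When libraries were scaled by their totals alone, 13 rose and 3 fell at 72 h. IL6, an inflammatory cytokine, rose by 2.67 ± 0.215 at 72 h (edgeR adjusted p = 1.16e-11), from 20.2 ± 5.87 CPM in monoculture to 128 ± 59.3 CPM in coculture (SD, n = 4). EPAS1, a hypoxia-inducible factor, rose by 1.73 ± 0.0863 (edgeR adjusted p = 2.92e-16). RUNX1, a runt-domain factor, rose by 1.01 ± 0.107 at 24 h (edgeR adjusted p = 2.49e-08) and by 1.22 ± 0.1 at 72 h (edgeR adjusted p = 1.66e-11).

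Other members of this list fell at 72 h. SOX9, the factor of cartilage development, fell by 1.07 ± 0.132 (edgeR adjusted p = 6.22e-08), and TGFB3, a transforming growth factor, fell by 0.87 ± 0.0657 (edgeR adjusted p = 2.80e-12). PTGER4, a prostaglandin E2 receptor, fell at every stage, by 0.60 in proliferation, 0.59 at 24 h and 0.68 at 72 h (edgeR adjusted p = 1.20e-06, 1.56e-06 and 1.71e-07). OSMR, the oncostatin M receptor, rose by 0.75 ± 0.0848 at 24 h (edgeR adjusted p = 8.02e-08). TGFB1 rose by 0.69 ± 0.0546 in proliferation (edgeR adjusted p = 1.73e-11). At that stage IL6ST fell by 0.67 ± 0.0711 (edgeR adjusted p = 4.24e-09) and HIF1A by 0.52 ± 0.0516 (edgeR adjusted p = 1.35e-09). Whether any of these genes bears on the 4 proteases was not tested.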

How the data were processed

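RNA sequencing of 24 bovine libraries in 6 groups of 4 was used as a deposited table of whole-number counts per gene. Per the submitters' processing notes the tools were FastQC, STAR, RSEM and DESeq2, without versions, so the deposited counts may be rounded RSEM estimates. The genome build and the strand setting of the counting are not given in the sources used here. The authors' deposited comparison tables give log2 fold changes and p-values per gene, together with gene names and coordinates. Of the 36 columns of library counts, 12 match no sample used here and were left out.

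The 4 genes and all gene lists were chosen with earlier results of these data known. Counts were fitted over all 24 libraries with edgeR 4.0.16 in R 4.3.3 (TMM factors, quasi-likelihood F test, 1 mean per group, Benjamini-Hochberg adjustment, threshold 0.05). The low-count filter removed 0 of 11937 genes. With 18 residual degrees of freedom, the common biological coefficient of variation was 6.86%. No 2 libraries were alike within sampling noise (the lowest chi-square per degree of freedom was 2.16). Correlations used log2 CPM with a prior count of 2.

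Named genes are the 4 proteases, every other listed ADAMTS or ADAMTS-like gene, up to 3 largest rises and 3 largest falls per list and comparison, the 3 genes most correlated with each protease, and the nearest listed genes. VCAN, and the values of some genes at further stages, were added after their values were seen. Alternatives were library totals alone, RLE size factors, DESeq2 1.42.0, other filters, only the groups compared, lane terms, lane 6 alone, a replicate block, and fits without each library or the 4 libraries rich in ribosomal RNA.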

Additional observations from a re-analysis of the deposited data

Results flagged for a closer look

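Among 102 sets of 4 libraries (17 genes in 6 groups), 10 held a library far from the others of its group, where chance marks about 1 in 20. Among the 4 proteases these were ADAMTS5 in monoculture replicate 1 at 24 h (5.15 CPM), ADAMTS9 in coculture replicate 4 in proliferation (7.99 CPM) and ADAMTS14 in coculture replicate 1 at 72 h (2.25 CPM). Coculture replicate 1 at 72 h also stood apart in ENSBTAG00000069841 (3.26 CPM) and ENSBTAG00000056698 (5.10 CPM). The share of nuclear ribosomal RNA in that library was 2.24%. Its part in these values was not tested. ENSBTAG00000056698 was far from the others in coculture replicate 1 at 24 h as well (7.89 CPM). Monoculture replicate 3 at 72 h, with 2.14% ribosomal RNA, stood apart in ADAMTS2 (196 CPM) and ADAMTSL1 (30.3 CPM). The remaining 2 were ADAMTS10 in monoculture replicate 3 in proliferation (33.3 CPM) and ADAMTSL3 in monoculture replicate 1 at 24 h (2.45 CPM).

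In 3 cases all later libraries lay above or all lay below the earlier ones, with opposite directions in monoculture and coculture. The difference was not tested, and for ADAMTS1 it follows from the contrasts that chose the gene. ADAMTS1 changed by -0.25 on the log2 scale from proliferation to 24 h in monoculture and by 0.42 in coculture. From 24 to 72 h ADAMTS1 changed by 1.35 in monoculture and by -0.25 in coculture, where it was -0.21 with lane as a term (edgeR adjusted p = 0.0652). ADAMTS3 changed over the same interval by -0.25 in monoculture and by 0.45 in coculture.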

How the results depend on the processing

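Of the values of the 4 proteases between cultures, 203 under the alternatives were within the spread of the reported ones and 5 were not: ADAMTS14 at 24 h with lane as a term (-0.19) and with lane 6 alone (-0.20), ADAMTS1 at 72 h with library totals alone (-1.27), ADAMTS5 at 72 h without the 4 libraries rich in ribosomal RNA (1.83), and ADAMTS14 at 72 h with lane as a term (-2.10). Of their tested changes over time, 258 kept direction and call, 15 lost and 1 gained the call, as given with each gene. ADAMTS5 from proliferation to 24 h in coculture changed sign with lane 6 alone (0.01) and ranged from -0.15 to 0.00 when 1 library was left out.

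Among other genes, 5 values changed sign, none of them called. At 24 h, leaving out 1 library gave -0.15 to 0.01 for ADAMTS7, -0.09 to 0.07 for ADAMTS10 and -0.04 to 0.10 for ADAMTSL3, and at 72 h ADAMTS10 was at 0.03 with library totals alone. The number of genes called between cultures went from 2836 to 1746 at 24 h with lane 6 alone and from 6029 to 3402 at 72 h with lane as a term. There the lane effect is estimated from the coculture libraries at 24 h, replicates 1 and 2 against 3 and 4. Over all genes replicate 2, with 4.07% ribosomal RNA, was far from the others (chi-square per degree of freedom of 117 to 144). Replicate 1 was near replicates 3 and 4 (3.19 and 3.84). With a lane term or lane 6 alone, an effect of lane and one of replicate 2 therefore cannot be fully told apart. With library totals alone the split at 72 h was 4727 higher and 1550 lower, against 2995 and 3034. edgeR's filter removed no gene, so a fit without it was identical.

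Replicate numbers did not pair the libraries (1 of 28 correlations over 0.1, from -0.142 to 0.119). With the replicate number as a block, 7009, 2756 and 5927 genes were called between cultures in proliferation, at 24 h and at 72 h, against 7041, 2836 and 6029, and no call of the 4 proteases changed. ADAMTS14 at 72 h in coculture rests on 25 to 38 counts per library, which limits its precision.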
